A study of Mus musculus with 6 samples.

Results

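The 10 genes described here are p53 itself (Trp53), its feedback inhibitors Mdm2 and Mdm4, and the p53 targets Ccng1, Btg2, Sesn1, Zmat3, Phlda3, Trp53inp1 and Eda2r. They were chosen by name, as p53, its feedback inhibitors and known targets, and all 10 were found among the 24391 genes counted. The libraries came from mRPMaxKO, 1 mouse line grown from an RPMax-/- lung tumour of mixed 129/SvJ and C57BL/6 background, used below passage 20. The letters R and P stand for loss of Rb1 and p53, a pair of deletions that models small cell lung cancer in the mouse. All libraries share these deletions, a doxycycline-inducible lentiviral vector in a polyclonal, puromycin-selected population, and a protocol of 4 days of doxycycline. They form 2 groups of 3, labelled control and MAX restored. The labels do not say what the control vector carried, whether doxycycline reached the control arm, or whether the 3 libraries of a group were separate cultures. The p-values therefore measure the spread between these libraries, which may be technical.

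p53 is a transcription factor that cells stabilise after DNA damage and other stress, and it switches on genes for growth arrest, DNA repair, metabolic adjustment and cell death. It also switches on Mdm2, whose product marks p53 for degradation, so the pathway holds itself in check. MDM4, a close relative of MDM2, binds the same part of p53 and blocks its activity. Most of the targets named here also have a basal level that does not need p53, and MAX, the partner through which MYC and MXD proteins bind E-box DNA, is not part of the pathway.

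Each library held between 10046899 and 11925909 counts. Max rose from 63.5 ± 2.47 to 1327 ± 18.7 CPM (SD, n = 3), the direction the labels give. CPM is a gene's count relative to its library's total, after TMM scaling for composition. Control 1 differed from the other controls, with a chi-square per degree of freedom of 8.91 and 10.2 against them, where all other pairs within a group lay between 1.24 and 1.5. Control 1 held 0.996% of its counts in the ribosomal RNA gene Rn45s, against 0.109% to 0.187% in the other 5 libraries. Rn45s is among the genes that enter the chi-square, and its part there was not tested. Neuroendocrine markers, which define this tumour type, were abundant, with a summed level of 7 genes between 5190.0 and 5409 CPM in the controls and between 6162 and 6395 CPM with MAX restored. The part of this difference in the results below was not tested. Levels differed widely among the 7: Calca was the highest, at 2563 CPM in the controls and 2826 CPM with MAX restored, and Dll3 was low, at 6.53 and 7.61 CPM. The 6 fibroblast markers summed to between 0.782 and 1.63 CPM, the 6 immune markers to between 0.0840 and 0.268 CPM and the 4 endothelial markers to between 1.05 and 1.96 CPM. Lum, Cd3e, Adgre1 and Cdh5 were at 0 in every library. Markers of these other cell types were thus at or near 0.

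Promoter windows (250 bases before to 50 after a start site, RefSeq, GRCm38.p6) were found for 8 of the 10 genes, with 10 windows in all, and are shown because the elements that p53 and MAX recognise can be read in them. The p53 binding site is built from a pair of 10-base elements, the p53 decamer, searched on both strands. A perfect decamer stood upstream of Ccng1, Mdm2, Sesn1 (1 of its 2 windows) and Trp53, whereas 8.36% of all 32851 windows hold at least 1. For Ccng1 the capitals mark the 20-base site of a decamer pair without a gap, which has 1 mismatch. Such a site with at most 2 mismatches was found in 0.798% of windows and, among these genes, for Ccng1 alone. In the next 3 sequences the capitals mark the decamer, and in the last they mark the E-box CACGTG, the hexamer bound by MYC-MAX dimers, which starts at position 11 of the Trp53 window, counted from the start site as 1.
Ccng1 (chr11, minus strand): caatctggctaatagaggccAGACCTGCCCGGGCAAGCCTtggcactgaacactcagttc
Mdm2 (chr10, minus strand): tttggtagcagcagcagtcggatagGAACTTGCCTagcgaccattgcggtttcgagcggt
Sesn1 (chr10, plus strand): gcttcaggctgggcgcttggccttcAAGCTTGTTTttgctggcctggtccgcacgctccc
Trp53 (chr11, plus strand): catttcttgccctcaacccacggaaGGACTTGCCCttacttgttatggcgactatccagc
Trp53 E-box (chr11, plus strand): actttcccctccCACGTGctcaccctggct

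Positions count back from the start site as negative numbers and give the first base in capitals. The Ccng1 stretch lies at chr11:40755442-40755501, with its site at -195. The Mdm2 stretch lies at chr10:117710910-117710969, with the decamer at -186. For Sesn1 the decamer is at -173, in chr10:41887241-41887300, and for Trp53 it is at -75, in chr11:69580259-69580318. The Trp53 E-box stretch spans chr11:69580357-69580386. A CACGTG hexamer occurred in 7.15% of all windows, and among these genes also in that of Eda2r, at position 45. The windows of Btg2, Mdm4 and Phlda3 held neither element. A match is a description of the letters and not a measured binding site.

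With MAX restored, 4 of the 10 genes rose, 4 fell, 1 did not pass the test and 1 had too few reads to be tested. Phlda3, Mdm2, Trp53inp1 and Sesn1 rose, by 1.53-fold, 1.26-fold, 1.24-fold and 1.17-fold. Mdm4, Zmat3, Btg2 and Ccng1 fell, by 1.26-fold, 1.26-fold, 1.19-fold and 1.17-fold. Of the 12664 genes tested, 63.5% passed the same threshold (adjusted p under 0.05, edgeR's quasi-likelihood test), 31.2% higher and 32.3% lower. With 8 of 9 tested genes called, split evenly, and a median log2 fold change of -0.15 against 0.00 over all genes, the list has to be read against that high background. The 3 MAX restored libraries lay wholly above or below the 3 controls in 8 of the 9, as they did for 67.1% of all tested genes. The changes were small: Phlda3 was the only 1 of the 9 past 1.5-fold, and 80.9% of all tested genes changed less than Phlda3, 59.9% less than Mdm4 and 44.8% less than Ccng1.

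**Figure D1:**
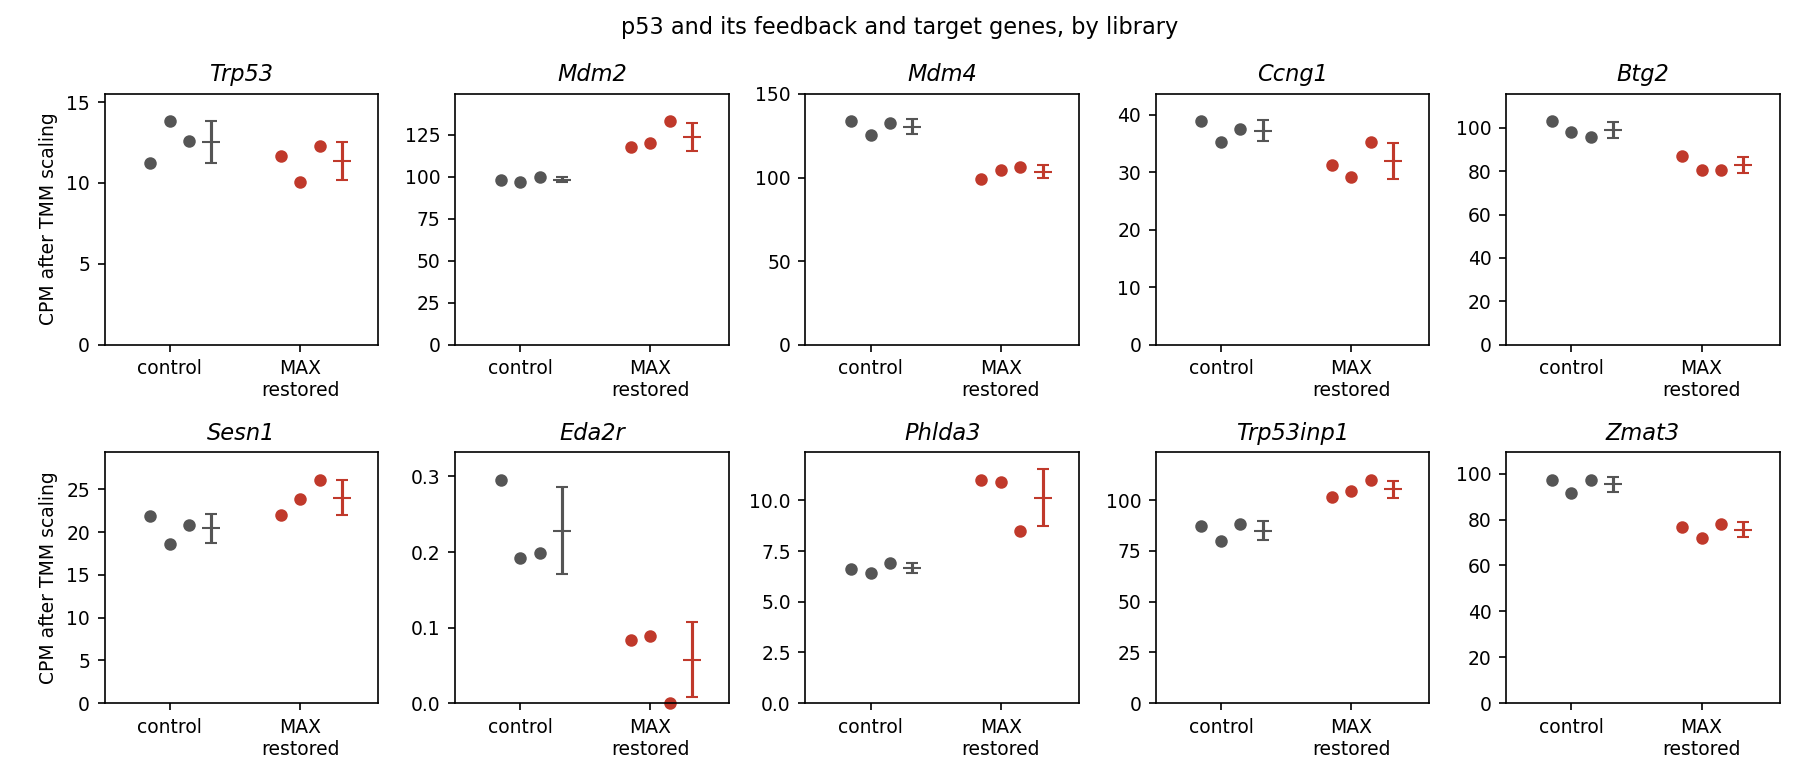
Level of each of the 10 genes in every library, in CPM on axes that start at 0, with control in grey and MAX restored in red. Points are libraries in replicate order and the bar beside them is the mean ± SD of 3; Mdm2 and Trp53inp1 sit higher and Mdm4, Btg2 and Zmat3 lower with MAX restored, while the Trp53 values of the groups overlap.

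Trp53, the gene of the transcription factor itself, was still counted in every library. The controls held 114, 144 and 127 reads, which are 11.2, 13.8 and 12.6 CPM. With MAX restored there were 139, 113 and 126 reads, or 11.7, 10.1 and 12.3 CPM. The groups overlapped, and the log2 fold change of -0.15 (SE 0.12) did not pass the test (adjusted p = 0.283). Its 95% interval ran from -0.39 to 0.10, so a change of 1.5-fold in either direction lay outside it. The locus spans chromosome 11 from 69393861 to 69405375 on the plus strand of mm9, with 12 distinct exons. By its genotype the line has lost p53 in both groups, so the changes of p53 targets were measured in cells without it. Counts summed over these exons do not show which of them the reads came from. They therefore do not show what the deletion left of the transcript. Rb1, the other tumour suppressor named in the genotype, was likewise still counted, at 322 ± 18.9 and 290 ± 1.74 CPM (SD, n = 3). Unlike Trp53, Rb1 passed the test and was lower with MAX restored (log2 -0.15, SE 0.04; adjusted p = 0.0041).

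Wrap53, the antisense neighbour of Trp53 with which it shares a promoter region, was at 21.5 ± 2.46 and 20.5 ± 0.226 CPM and did not pass the test either (log2 -0.07, SE 0.09; adjusted p = 0.505). No exon of Wrap53 overlapped an exon of Trp53 in the annotation used. Per kb of exon, the ratio of Wrap53 to Trp53 was 1.69 ± 0.102 in the controls and 1.79 ± 0.197 with MAX restored (SD, n = 3; exact two-sided permutation p = 0.5).

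The feedback inhibitors moved in opposite directions. Mdm2, the ubiquitin ligase that targets p53, was at 97.7, 96.6 and 99.8 CPM in the controls and at 117, 120 and 133 CPM with MAX restored. Every MAX restored library lay above every control. The log2 fold change was 0.33 (SE 0.05; adjusted p = 1.64e-05). Mdm4, which blocks p53 without degrading it, was at 134, 125 and 133 CPM in the controls and at 99.1, 105 and 107 CPM with MAX restored. Here every MAX restored library lay below every control, with a log2 fold change of -0.34 (SE 0.05; adjusted p = 6.46e-06).

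Per kb of exon, the ratio of Mdm2 to Mdm4 was 1.74, 1.83 and 1.79 over the controls, against 2.81, 2.71 and 2.96 with MAX restored. The ratio was therefore 1.59 times as large with MAX restored, and it was larger in all 3 of those libraries than in any control. An exact two-sided permutation test gave p = 0.1, the smallest value that 3 against 3 allows. The ratio of Mdm2 to Trp53 went from 4.75 ± 0.514 to 6.58 ± 0.555 (SD, n = 3), also without overlap (exact permutation p = 0.1). The promoter window of Mdm2 held the decamer printed above, and neither of the 2 windows of Mdm4 held one. The part of this element in the changes was not tested.

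**Figure D2:**
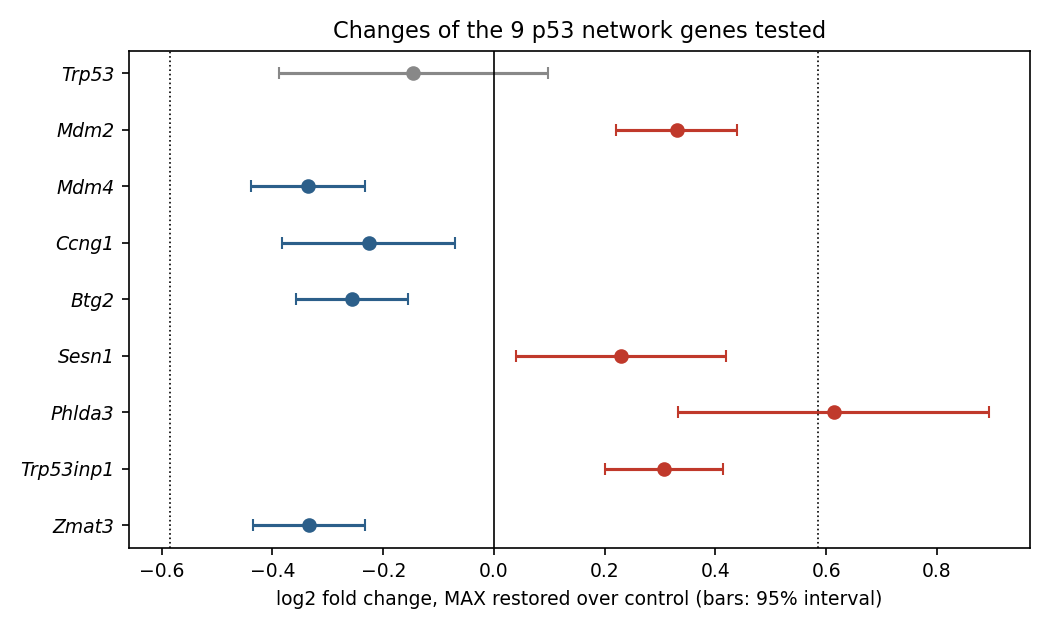
Log2 fold change of MAX restored over control for the 9 genes tested, with 95% intervals; red points rose, blue points fell and the grey point, Trp53, did not pass the test. Dotted lines mark 1.5-fold in each direction, and Phlda3 at 0.61 is the only point beyond them.

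Both genes linked to growth arrest fell. Btg2, an antiproliferative factor that recruits the mRNA deadenylase CCR4-NOT, was at 103, 98.2 and 95.7 CPM in the controls and at 87.1, 80.5 and 80.7 CPM with MAX restored. The groups did not overlap and the log2 fold change was -0.26 (SE 0.05; adjusted p = 0.000121). Ccng1, cyclin G1, which brings the phosphatase PP2A to MDM2, was at 38.8, 35.3 and 37.5 CPM in the controls and at 31.3, 29.1 and 35.3 CPM with MAX restored. The highest MAX restored library, number 3, came close to control 2. The log2 fold change was -0.23 (SE 0.07; adjusted p = 0.0126), and the call was lost without MAX restored 1 (adjusted p = 0.0596) or MAX restored 2 (adjusted p = 0.107). Ccng1 is the gene with the paired decamer printed above, whose part in its fall was not tested.

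Among genes of death and survival signalling, Phlda3 and Trp53inp1 rose. Phlda3, a pleckstrin homology protein that competes with the kinase AKT for membrane lipids, was at 6.60, 6.42 and 6.93 CPM in the controls and at 11.0, 10.9 and 8.50 CPM with MAX restored. MAX restored 3 was the lowest of its group and still lay above every control. The log2 fold change was 0.61 (SE 0.13; adjusted p = 0.000532), and it ran from 0.55 to 0.72 over the other settings tried.

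Trp53inp1 encodes a stress protein that acts in the nucleus with p53 and in autophagy. Its levels were 87.2, 79.7 and 88.4 CPM in the controls and 101, 104 and 110 CPM with MAX restored. The groups did not overlap, and the log2 fold change was 0.31 (SE 0.05; adjusted p = 2.76e-05).

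Eda2r, a receptor of the tumour necrosis factor family for the ligand ectodysplasin A2, was barely detected. It held 3, 2 and 2 reads in the controls and 1, 1 and 0 reads with MAX restored. The 7 control reads against 2 gave a depth-corrected ratio of 3.81, with an exact binomial 95% interval, for counting error only, from 0.726 to 37.6. A difference was thus not detectable at this depth, and the gene had too few reads to enter the test.

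Sesn1 and Zmat3 act in metabolism and on RNA. Sesn1, a sestrin that restrains mTORC1 when nutrients or redox balance fail, was at 21.9, 18.6 and 20.8 CPM in the controls and at 22.0, 23.9 and 26.1 CPM with MAX restored. Control 1 and MAX restored 1 nearly touched. The log2 fold change of 0.23 (SE 0.09; adjusted p = 0.0332) was the least firm of the 8 calls. It was lost with DESeq2 (adjusted p = 0.0801), without control 2 (adjusted p = 0.157), without MAX restored 2 (adjusted p = 0.0680) and without MAX restored 3 (adjusted p = 0.148).

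Zmat3, a zinc-finger protein that binds RNA and regulates splicing and stability of transcripts, was at 97.2, 91.7 and 97.3 CPM in the controls and at 77.0, 72.1 and 77.9 CPM with MAX restored. The groups lay well apart, with a log2 fold change of -0.33 (SE 0.05; adjusted p = 5.39e-06). Of its 7782 exonic bases, 162 overlap the antisense gene 4930429B21Rik, whose reads cannot be told apart there. No other of the 10 genes shared exonic bases with another gene.

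Levels were compared between genes per kb of exon. In the controls the order was Btg2 at 32.1 ± 1.21, Mdm2 at 31.6 ± 0.509, Mdm4 at 17.7 ± 0.604, Trp53inp1 at 15.7 ± 0.867, Zmat3 at 12.3 ± 0.414, Ccng1 at 10.7 ± 0.512, Trp53 at 6.71 ± 0.690, Sesn1 at 6.12 ± 0.499, Phlda3 at 4.53 ± 0.177 and Eda2r at 0.0393 ± 0.00999 CPM per kb (SD, n = 3). Neighbours in this order did not overlap over the 3 libraries, except Btg2 with Mdm2 and Trp53 with Sesn1. Btg2 and Mdm2 thus could not be ordered in the controls, where they lay above 76.3% and 75.9% of tested genes.

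With MAX restored the order changed at the top and the bottom. Mdm2 led at 39.8 ± 2.66 CPM per kb, above Btg2 at 26.9 ± 1.22, and Trp53inp1 at 19.4 ± 0.804 stood above Mdm4 at 14.1 ± 0.528, without overlap in either pair. Trp53, at 6.08 ± 0.616, became the ninth, below Sesn1 at 7.19 ± 0.611 and Phlda3 at 6.91 ± 0.963, and Phlda3 overlapped both of these neighbours. Zmat3 at 9.72 ± 0.401 and Ccng1 at 9.14 ± 0.901 overlapped as well.

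**Figure D3:**
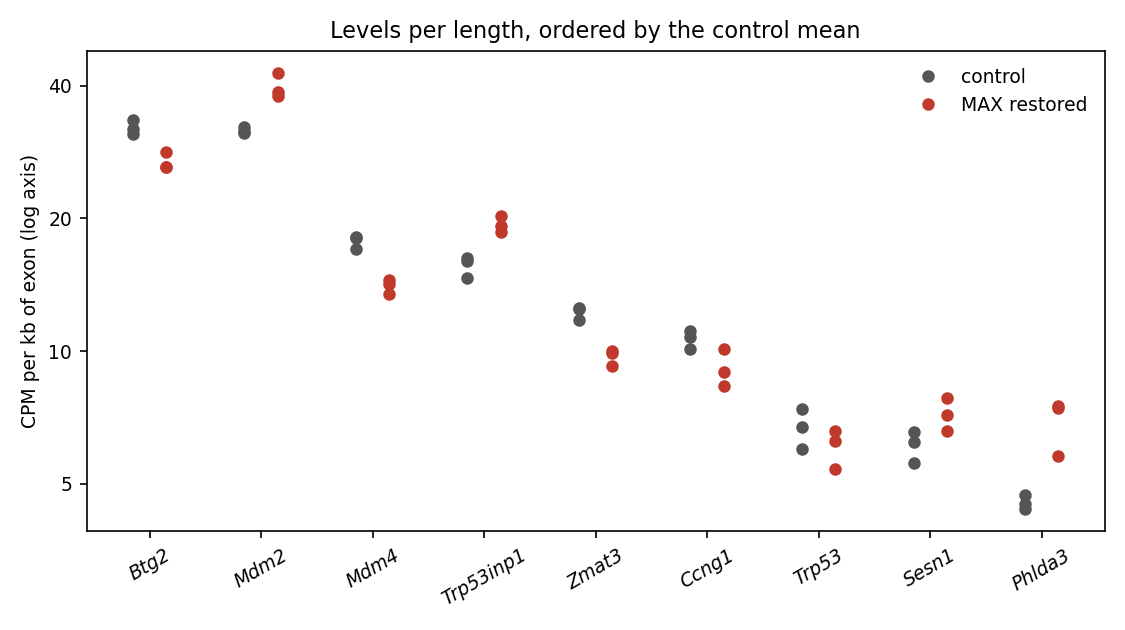
Level of 9 genes in CPM per kb of exon, on a log axis, with 3 points per group for the libraries and genes ordered by the control mean. Btg2 and Mdm2 share a level in the controls and separate with MAX restored, and Mdm4 and Trp53inp1 exchange places; Eda2r, at 0.0393 CPM per kb or less on average, is left out.

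Of the other p53 targets, 60 genes in 5 lists, 52 had enough reads to be tested; 24 fell, 11 rose and 17 did not pass. The share called was 67.3%, near the 63.5% of all tested genes, with 46.2% lower against 32.3% and 21.2% higher against 31.2%. The median log2 fold change was -0.14, where all genes had 0.00. Of the arrest targets tested 100% were called, beside 63.5% of all tested genes, with 87.5% lower against 32.3% and 12.5% higher against 31.2%. They were lower in 7 of 8 tested, and their median was -0.44. The exception, Plk2, passed narrowly (log2 0.45, SE 0.20; adjusted p = 0.0497) on 26 to 58 reads, with groups that overlapped (3.96 CPM in control 3, 3.92 CPM in MAX restored 2). Cdkn1a, the cyclin-dependent kinase inhibitor p21 and the classical p53 arrest gene, fell from 150.1 ± 3.94 to 119.95 ± 7.75 CPM (SD, n = 3; log2 -0.32, SE 0.05; adjusted p = 2.07e-05). Sfn, the 14-3-3 sigma protein that holds mitotic kinases in the cytoplasm, fell 2.54-fold, and Ckap2, a spindle protein, 1.48-fold.

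Apoptosis targets were lower in 7 of 10 tested and higher in 1, Perp (log2 0.32, SE 0.10). The share called was 80%, beside 63.5% of all tested genes, with 70% lower against 32.3% and 10% higher against 31.2%. Bid, the BH3 protein that links death receptors to mitochondria, fell 3.47-fold, from 24.9 ± 1.68 to 7.18 ± 0.828 CPM (SD, n = 3). Aen, an exonuclease of dying cells, fell 2.41-fold, from 53.1 ± 1.67 to 22.0 ± 1.11 CPM (SD, n = 3). Bax, the pore-forming effector, fell by 0.40 on the log2 scale (SE 0.05) and Bbc3, the BH3 protein PUMA, by 0.23 (SE 0.08; adjusted p = 0.0173). The Bbc3 call was lost with DESeq2 (adjusted p = 0.0721) and without control 3, MAX restored 1 or MAX restored 3 (adjusted p between 0.0516 and 0.0659). Fas held no read in the controls and averaged 0.0280 CPM with MAX restored, and Pmaip1 was at 0 in all 6 libraries, so neither was tested.

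Of the repair targets 57.1% were called, of the metabolic targets 76.9% and of the remaining targets 35.7%, beside 63.5% of all tested genes. Repair targets were lower in 3 of 7, namely Rrm2b (log2 -0.60), Ddb2 (-0.30) and Xpc (-0.28), and higher in the translesion polymerase gene Polk (0.29). For Xpc the groups overlapped (32.39 CPM in control 3, 32.43 CPM in MAX restored 1). Metabolic targets were lower in 6 and higher in 4 of 13 tested. The 4 were Ak1 (log2 0.49), Aldh4a1 (0.47), Cpt1c (0.29) and Prkab1 (0.24). The 6 were Gls2 (-0.75), Sesn2 (-0.73), Tigar (-0.575), Gpx1 (-0.54), Pank1 (-0.31) and Ddit4 (-0.28). The remaining targets were higher in 4 of 14, Thbs1 (1.20), Epha2 (1.13), Gdf15 (0.81) and Ephx1 (0.26), and lower in the non-coding Pvt1 (-0.83). Gdf15 (SE 0.21) held only 27 to 82 reads, and its groups overlapped (4.41 CPM in control 2, 4.37 CPM in MAX restored 1). The groups of Ephx1 (SE 0.10) overlapped as well (20.60 CPM in control 3, 20.25 CPM in MAX restored 2). Thbs1, the matrix protein thrombospondin, rose 2.30-fold from 57.5 ± 1.77 to 132 ± 6.06 CPM (SD, n = 3). Members of these lists named because a count was 5 or fewer were chosen after their values were seen. So were the lower metabolic targets other than Sesn2.

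**Figure D4:**
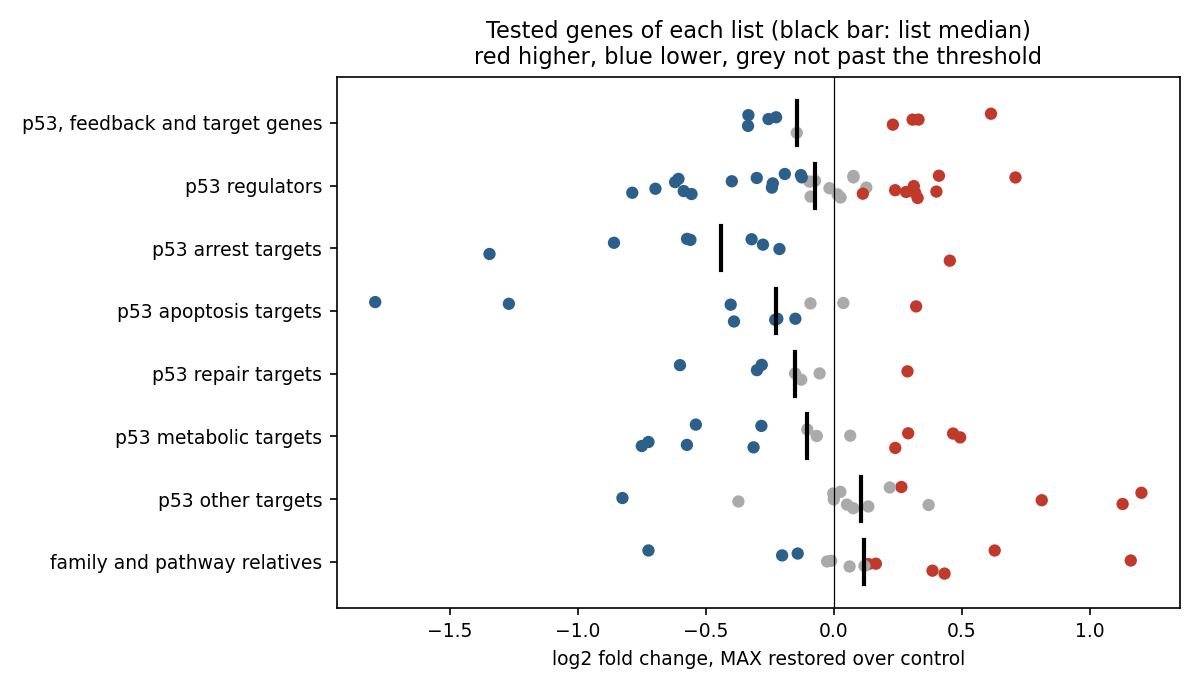
Log2 fold change of every tested gene in the list of 10 genes, the regulator list, the 5 target lists and the family and pathway relatives; each point is a gene, red if higher, blue if lower and grey if not past the threshold, and black bars are list medians. Arrest targets have the lowest median, -0.44, and the family and pathway relatives the highest, 0.12.

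Regulators of p53 were lower in 13 and higher in 9 of 31, all of them tested. The 71.0% called lay near the 63.5% of all tested genes, with 41.9% lower against 32.3% and 29.0% higher against 31.2%. Of 6 kinases that act on p53, 5 fell, where 32.3% of all tested genes fell. Hipk2 did not pass the test (log2 0.01, SE 0.07; adjusted p = 0.875). Atr fell 1.73-fold, from 100.3 ± 8.04 to 58.1 ± 2.46 CPM, and Atm fell by 0.59 on the log2 scale, from 94.0 ± 7.07 to 62.6 ± 2.17 CPM (SD, n = 3). Huwe1, a ubiquitin ligase with p53 among its substrates, fell 1.52-fold, Npm1, the nucleolar protein nucleophosmin, 1.62-fold and Rpl23, a ribosomal protein that binds MDM2, 1.47-fold. Rpl11, another ribosomal protein that binds MDM2, rose on few reads, 17 to 21 in the controls and 24 to 41 with MAX restored (log2 0.71, SE 0.25; adjusted p = 0.0185), and Rpl5 did not pass the test (log2 -0.09, SE 0.27). Ribosomal protein genes have close copies in the genome, and how reads were shared with them was not tested, so these 3 counts are uncertain. Hipk2, Rpl11 and Rpl5 were added after their values were seen. The acetyltransferase genes Crebbp and Ep300 rose 1.33-fold and 1.24-fold, the ubiquitin ligase gene Ube4b 1.25-fold, and Ppp1r13b and Trp53bp2, which encode the p53 cofactors ASPP1 and ASPP2, 1.32-fold and 1.25-fold. Ppm1d, the phosphatase WIP1 and itself a p53 target, rose 1.18-fold (log2 0.24, SE 0.05; adjusted p = 0.000723). Cdkn2a, which encodes the MDM2 inhibitor ARF beside p16, was at 140.5 ± 8.31 and 128.7 ± 2.73 CPM (SD, n = 3; log2 -0.13, SE 0.05; adjusted p = 0.0361). That call was lost under 7 of 14 other settings, among them without control 1 (adjusted p = 0.0897).

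Relatives of the 10 genes, which are members of their families and the ectodysplasin pathway genes Eda, Edar and Edaradd, were higher in 6 and lower in 3 of 13 tested, and 7 more had too few reads. The 69.2% called lay near the 63.5% of all tested genes, with 46.2% higher against 31.2% and 23.1% lower against 32.3%. The sestrins went different ways, with Sesn2 down 1.65-fold and Sesn3 up 1.31-fold (log2 0.38, SE 0.05) beside the log2 change of 0.23 of Sesn1. Cyclin G2 (Ccng2) rose 1.55-fold, from 21.6 ± 0.231 to 33.5 ± 0.805 CPM, whereas Ccng1 fell. Phlda1 rose 2.23-fold, from 4.75 ± 0.530 to 10.6 ± 0.193 CPM (SD, n = 3), in the same direction as Phlda3. Trp53inp2 rose 1.10-fold and Zmat1 1.35-fold, while Zmat2 fell 1.15-fold. Tob2 fell 1.10-fold, a call lost under 6 of 14 other settings (adjusted p up to 0.122). Of the same family, Tob1 rose 1.12-fold (log2 0.16, SE 0.05; adjusted p = 0.00666). Btg1 did not pass the test (log2 0.06, SE 0.07; adjusted p = 0.444). Tob1 and Btg1 were added after their values were seen. Zmat5 was at log2 -0.01 (SE 0.09). Of the p53 family, Trp73 did not pass the test (15.6 ± 0.922 and 15.3 ± 0.144 CPM; SD, n = 3; adjusted p = 0.815), and Trp63 held 3 reads in all 6 libraries together.

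The positions of the 10 genes were set beside those of their neighbours. The 50 tested genes around each of them (43 at the start of chromosome 4, near Trp53inp1) had a median log2 fold change between -0.17, around Ccng1, and 0.11, around Eda2r. Mdm4 (chromosome 1, 134882682 to 134927164), Btg2 (135971442 to 135975732) and Phlda3 (137662662 to 137665711) lie close together in mm9, with neighbour medians of 0.05, 0.05 and -0.02. Mdm4 and Btg2 fell there and Phlda3 rose. Around Ccng1 24 of the 50 neighbours were lower and 7 higher, where 32.3% of all tested genes were lower and 31.2% higher. The part of these neighbours in the fall of Ccng1 was not tested. For some of the other genes named the neighbours leaned to one side. The neighbour median was 0.48 for Ube4b, 0.49 for Epha2, 0.51 for Aldh4a1, 0.41 for Trp73 and 0.37 for Rpl11. These genes all lie on chromosome 4, between 135605863 and 153514317. The median was 0.36 for Zmat2, 0.30 for Gdf15, -0.44 for Huwe1, -0.22 for Atm and -0.21 for Pank1. The part of the neighbours in the values of these genes was not tested.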

How the data were processed

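RNA was sequenced from 6 libraries made from 500 ng of total RNA each. Per the submitters' processing notes, the authors used bcl2fastq 1.8.4, STAR 2.5.2a and featureCounts of Subread 1.6.0 with mm9. Each deposited file lists whole-number counts for every gene, which the authors made without strand over UCSC mm9 exons, per the file headers. Reads of antisense partners therefore cannot be told apart.

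In R 4.3.3, edgeR 4.0.16 (filterByExpr, minimum count 10; TMM; quasi-likelihood test, group only, two-sided, Benjamini-Hochberg over all 12664 genes tested, threshold 0.05) gave fold changes. Standard errors are the absolute log2 fold change over the square root of F. The biological coefficient of variation was 4.28%. In simulated data for this comparison (12563 genes) 68% of 1.25-fold and 90% of 1.5-fold changes were recovered. There 12364 genes were left unchanged, whereas 63.5% of the genes tested in the real data were called. Recovery with so large a share of changed genes was not tested. Alternatives used other scalings and filters, DESeq2 1.42.0, limma 3.58.1 (voom), a replicate block and leaving out each library.

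The genes and lists were chosen with earlier results of these data known. All 10 were named. From the regulators, the 5 target lists together and the relatives, the 5 smallest p in each direction were named, with Cdkn1a, Bax, Bbc3, Ppm1d, Cdkn2a, Trp63, Trp73, Wrap53, Max, Rb1 and, for each of the 10, the nearest tested gene on either side; 1 of these neighbours and 1 neuroendocrine marker are not reported here. Cell type markers were Chga, Chgb, Syp, Insm1, Ncam1, Calca and Dll3 (neuroendocrine), Col1a1, Col1a2, Dcn, Pdgfra, Lum and Thy1 (fibroblast), Ptprc, Cd3e, Cd79a, Itgam, Adgre1 and Csf1r (immune), and Pecam1, Kdr, Cdh5 and Tek (endothelial). Intervals on counts cover counting error only.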

Additional observations from a re-analysis of the deposited data

How the results depend on the processing

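Among the 9 genes tested, 120 of 126 values under 14 other settings kept their direction and their side of the threshold; the other 6 belong to Ccng1 and Sesn1, and none reversed. Requiring at least 1.5-fold left 1 of these genes higher and 0 lower, 3 of the other targets higher and 8 lower, 1 regulator higher and 5 lower, and 1505 of all genes higher and 1026 lower. Leaving out each library in turn gave 3 to 4 of the 10 genes higher and 3 to 4 lower; without control 1 both counts were 4. The same range was 9 to 12 higher and 20 to 24 lower for the other targets, 7 to 10 and 9 to 13 for the regulators, and 3618 to 4033 and 3640 to 4219 for all genes. Replicate numbers are shared by the groups, but same-numbered libraries did not deviate together (correlations 0.00, 0.04 and -0.02). With the replicate block, 4 of the 10 genes were higher and 4 lower, and 3941 and 4093 of all genes. The ratio of Mdm2 to Mdm4, 1.59 times as large with MAX restored, ran from 1.55 to 1.62 without single libraries. At 10046899 to 11925909 counts per library, Eda2r could not be tested and Phlda3 had the widest interval of the 9.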

Other observations

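Among the nearest tested genes on either side of the 10, some changed more than any of the 10; several with large changes are given here, chosen after their values were seen. Pgr15l, beside Eda2r, fell from 4.53 ± 0.212 to 1.68 ± 0.506 CPM (SD, n = 3; log2 -1.40, SE 0.22; edgeR adjusted p = 1.39e-05).

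Atp1b2, a sodium pump subunit gene beside Trp53, rose from 8.52 ± 0.822 to 27.3 ± 1.42 CPM (SD, n = 3; log2 1.68, SE 0.10; edgeR adjusted p = 1.94e-11), while Trp53 and Wrap53 did not pass the test. Adora1, an adenosine receptor gene beside Btg2, rose (log2 2.21, SE 0.37) on 2, 7 and 4 reads in the controls against 22, 24 and 21. Lrrn2, beside Mdm4, rose (log2 1.57, SE 0.28), as did Armc2 beside Sesn1 (log2 1.26, SE 0.13). Edar, another ectodysplasin receptor gene, which had too few reads to be tested and was also chosen after its counts were seen, held 0, 1 and 0 reads in the controls and 7, 7 and 10 with MAX restored.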
